A study of Homo sapiens with 15 samples.

Results

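The results below describe CEACAM5, CEACAM6, CEACAM1 and CEACAM7, 4 adhesion genes of the carcinoembryonic antigen family, in breast cancer cells that resist T-DM1, the conjugate of trastuzumab with the microtubule poison emtansine. They are 4 of the 14884 genes that carry a symbol on the arrays, and all 4 are among the 12147 genes that passed the filter on dim signals. The genes were selected on measured values of these same arrays, their differences between clones and parental cells, so their levels are given as a description, with no test. The 4 resistant groups were BT474 T-DM1R clone C#1, clone C#2, clone C#3 and clone C#6, and the fifth group was the parental BT474 line, a HER2-amplified human breast cancer line described as drug-sensitive. Each clone came from a single cell after prolonged exposure to the drug and was then grown in 5 nM T-DM1 for 3 months, and the sources used here do not say whether the drug was still present at harvest. Each group had 3 arrays, called biological replicates in the labels, giving 15 arrays in all. A group therefore stands for 1 clone, and the replicates show how that clone varied, not how resistant cells vary. No cloned but unselected line was among the groups, so selection, cloning and culture in the drug cannot be told apart.

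CEACAM proteins are cell surface members of the immunoglobulin superfamily that bind each other between neighbouring cells, either like with like or across family members. CEACAM5 is the carcinoembryonic antigen, a serum marker of epithelial tumours. It, CEACAM6 and CEACAM7 are held in the outer leaflet of the plasma membrane by a glycosylphosphatidylinositol (GPI) anchor. CEACAM1 instead spans the membrane, and its long form carries inhibitory motifs that recruit the phosphatases SHP-1 and SHP-2. In the breast, CEACAM1 is known for its place on the luminal surface of ducts and for a part in lumen formation. CEACAM6 is found on epithelia and granulocytes, and CEACAM7 is known mainly from colon and pancreatic ducts.

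The genes form a cluster on chromosome 19. In the RefSeq gene order CEACAM7, CEACAM5 and CEACAM6 follow each other with 0 genes between them, and 36 genes lie between CEACAM6 and CEACAM1. Their promoters are shown because the 4 genes are close copies of each other whose levels differed in order among the clones. Each sequence is RefSeq's, build GRCh38.p14, and runs from 250 bases before to 50 bases after the annotated start: chr19:41708376-41708675 (plus strand) for CEACAM5, chr19:41755280-41755579 (plus strand) for CEACAM6, chr19:42528432-42528731 (minus strand) for CEACAM1 and chr19:41688221-41688520 (minus strand) for CEACAM7. Capitals mark the E-box CACGTG, the letters bound by USF factors, in CEACAM5 and CEACAM6, and the 6 bases that a pairwise alignment set against it in CEACAM1 and CEACAM7.
CEACAM5: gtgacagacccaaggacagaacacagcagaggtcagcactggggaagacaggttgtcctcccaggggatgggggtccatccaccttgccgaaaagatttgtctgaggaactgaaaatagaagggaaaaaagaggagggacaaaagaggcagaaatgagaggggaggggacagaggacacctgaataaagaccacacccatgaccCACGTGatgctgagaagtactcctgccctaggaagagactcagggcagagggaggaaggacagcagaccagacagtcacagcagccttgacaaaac
CEACAM6: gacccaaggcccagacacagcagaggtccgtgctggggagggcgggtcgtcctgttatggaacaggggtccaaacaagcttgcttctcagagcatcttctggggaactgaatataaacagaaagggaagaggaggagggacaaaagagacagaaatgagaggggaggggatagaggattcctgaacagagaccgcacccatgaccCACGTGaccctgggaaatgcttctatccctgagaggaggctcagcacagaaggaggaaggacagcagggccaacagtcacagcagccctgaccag
CEACAM1: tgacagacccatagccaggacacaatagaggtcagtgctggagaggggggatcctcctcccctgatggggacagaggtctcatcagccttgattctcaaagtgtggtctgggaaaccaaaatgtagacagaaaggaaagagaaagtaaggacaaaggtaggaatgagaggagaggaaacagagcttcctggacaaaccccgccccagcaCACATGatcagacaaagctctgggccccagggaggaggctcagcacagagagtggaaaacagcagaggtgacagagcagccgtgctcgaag
CEACAM7: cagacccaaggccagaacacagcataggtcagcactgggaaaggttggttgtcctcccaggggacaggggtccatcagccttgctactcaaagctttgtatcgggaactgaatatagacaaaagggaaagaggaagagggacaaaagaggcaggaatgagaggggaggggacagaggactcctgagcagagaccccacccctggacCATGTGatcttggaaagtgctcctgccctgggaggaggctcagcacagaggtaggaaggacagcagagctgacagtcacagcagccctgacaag
The E-box began 46 bases before the start of CEACAM5 and 45 bases before that of CEACAM6. The aligned bases were CACATG in CEACAM1 and CATGTG in CEACAM7, each equal to the E-box at 5 of 6 letters. On either strand, CACGTG (its own reverse complement) was present in 2 of the 10 CEACAM promoters in the table, in 0 of 3 PSG promoters and in 7.26% of all 35116 promoters of this length. The GC box GGGCGG, read on both strands, was present in CEACAM6, 211 bases before the start, and in CEACAM1, 52 bases before it, against 45.0% of all promoters. The GC box was also present in the promoters of CEACAM8, CEACAM18, CEACAM21, PSG3 and PSG4. The letters AANNGAAA, part of an interferon regulatory factor site, were read on both strands. They occurred in 2 places each in CEACAM5 and CEACAM1 and in 1 place each in CEACAM6 and CEACAM7. Of all promoters, 22.8% had at least 1 match. Among the 10 CEACAM and 3 PSG promoters, only those of CEACAM20 and CEACAM21 lacked these letters, so they do not set the 4 genes apart within the family. The letters AGATAA and TGATAA, bound by GATA factors, were searched on both strands and not found in these 4 windows. Neither were AGATAG or TGATAG, and 25.0% of all promoters hold at least 1 of them. Pairwise identity of the 4 windows ran from 72.0% for CEACAM5 with CEACAM1 to 84.7% for CEACAM5 with CEACAM7, and the longest run shared by CEACAM5 and CEACAM7 was 25 bases. The genes' transcripts resemble each other too, and binding of one gene's RNA to another's probes was not tested. A match of letters is a description of the sequence only.

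Each of the 4 genes had 1 probe set, which lay above the 40th percentile of its array in all 15 arrays. Values are deposited log2 expression values, and they compare groups within a gene, not 1 gene with another. Differences are clone minus parental on the log2 scale, with the standard error (SE) of a limma fit over all 15 arrays; the 4 comparisons share the 3 parental arrays. In RNA from whole cultures, fewer expressing cells and less RNA per cell cannot be told apart. The labelled cell type was checked with marker genes: all 16 luminal epithelial markers with a symbol passed the filter, and their summed linear level was 11398 to 16595 in clones and 12543 to 12690 in parental cells. Such a sum is weighted to the brightest markers and can hide changes in others. TFF1 was at 11.34 to 12.62 in clones and 10.63 to 10.95 in parental cells. GATA3 was at 5.65 to 8.44 in clones and 8.98 to 9.22 in parental cells. Calls of luminal markers in both directions are given below. The 10 leukocyte markers with a symbol summed to 150 to 185 in clones and 165 to 177 in parental cells; 7 passed the filter, 0 were called by limma in any clone and 0 had an unadjusted p under 0.05. The 4 basal markers summed to 48.2 to 61.9 in clones and 51.2 to 58.7 in parental cells. The 6 fibroblast and endothelial markers summed to 105 to 157 in clones and 173 to 219 in parental cells. VIM, the intermediate filament vimentin, which tumour epithelium can also express, fell, with differences of -1.10 in C#1, -1.03 in C#2, -0.53 in C#3 and -1.24 in C#6 (SE 0.14; adjusted p at most 0.0141). The C#3 call was lost without parental replicate 1 or parental replicate 2 and with the mean of VIM's probe sets, which gave -0.58 in C#1, -0.60 in C#2, -0.26 in C#3 and -0.57 in C#6. The part of these marker levels in the results below was not tested.

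CEACAM5 was high in 3 clones and low in C#3. It measured 11.34, 11.44 and 11.53 in C#1, 11.34, 11.11 and 11.04 in C#2, 7.44, 7.19 and 6.77 in C#3, and 11.47, 11.48 and 11.46 in C#6, against 8.41, 8.24 and 8.68 in parental cells. Every array of C#1, C#2 and C#6 lay above every parental array, and every array of C#3 lay below them. The group means were 11.44 ± 0.09 in C#1, 11.16 ± 0.16 in C#2, 7.13 ± 0.34 in C#3 and 11.47 ± 0.01 in C#6, against 8.44 ± 0.22 in parental cells (SD, n = 3 each). The differences were 3.00 in C#1, 2.72 in C#2, -1.31 in C#3 and 3.03 in C#6 (SE 0.15), which is 7.97-fold the parental level in C#1, 6.58-fold in C#2 and 8.15-fold in C#6. In C#3 the parental level was 2.48 times that of the clone. C#6 stood 4.34 log2 units, or 20.2-fold, above C#3, the widest gap between group means among the 4 genes. In order of level C#6 and C#1 came at the top with overlapping ranges, then C#2, whose highest array lay below the lowest of both, then parental cells and C#3.

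CEACAM6, the neighbour of CEACAM5 on the chromosome, was highest in C#6 and lay near the parental level in C#3. It measured 7.05, 7.90 and 8.18 in C#1, 5.99, 7.07 and 7.46 in C#2, 5.72, 6.49 and 6.15 in C#3, and 8.63, 9.02 and 9.09 in C#6, against 5.97, 6.09 and 6.38 in parental cells. The arrays of C#1 and C#6 lay above all parental arrays, and the ranges of C#2 and C#3 overlapped the parental range. The means were 7.71 ± 0.59 in C#1, 6.84 ± 0.76 in C#2, 6.12 ± 0.39 in C#3 and 8.91 ± 0.25 in C#6, against 6.15 ± 0.21 in parental cells (SD, n = 3 each). The differences were 1.56 in C#1, 0.69 in C#2, -0.03 in C#3 and 2.77 in C#6 (SE 0.32), or 2.96-fold the parental level in C#1 and 6.81-fold in C#6. In order of level, C#6 stood alone at the top; C#1 and C#2 overlapped, C#2 also overlapped C#3 and parental cells, and C#3 overlapped parental cells. The C#2 difference rested on single arrays: it was 1.12 without replicate 1 of C#2 and 0.38 without replicate 3 of C#2. The C#3 difference, which was near 0, ran from -0.21 to 0.17 with 1 array left out.

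CEACAM1, the transmembrane member, was above the parental level in all 4 clones, by smaller amounts. It measured 6.54, 6.57 and 6.58 in C#1, 6.70, 6.42 and 6.51 in C#2, 6.23, 6.21 and 6.10 in C#3, and 7.27, 7.16 and 7.03 in C#6, against 6.03, 5.81 and 5.83 in parental cells. No clone's range overlapped the parental range. The means were 6.56 ± 0.02 in C#1, 6.55 ± 0.14 in C#2, 6.18 ± 0.07 in C#3 and 7.15 ± 0.12 in C#6, against 5.89 ± 0.12 in parental cells (SD, n = 3 each). The differences were 0.67 in C#1, 0.66 in C#2, 0.29 in C#3 and 1.26 in C#6 (SE 0.10), or 1.59-fold the parental level in C#1, 1.58-fold in C#2, 1.22-fold in C#3 and 2.39-fold in C#6. C#6 was highest, 0.97 above C#3; C#1 and C#2 overlapped, and C#3 lay between them and parental cells without overlapping either. The summary of 1 probe set does not separate the long and short forms of CEACAM1.

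CEACAM7 was above the parental level in C#3 and C#6, and its arrays in C#1 and C#2 were spread on both sides of it. It measured 4.93, 6.38 and 6.53 in C#1, 5.22, 6.10 and 6.46 in C#2, 6.56, 7.37 and 7.24 in C#3, and 7.07, 7.36 and 7.53 in C#6, against 6.41, 6.34 and 6.38 in parental cells. The C#3 and C#6 arrays lay above all parental arrays and overlapped each other. The means were 5.95 ± 0.88 in C#1, 5.93 ± 0.64 in C#2, 7.06 ± 0.43 in C#3 and 7.32 ± 0.24 in C#6, against 6.38 ± 0.03 in parental cells (SD, n = 3 each). The differences were -0.43 in C#1, -0.45 in C#2, 0.68 in C#3 and 0.94 in C#6 (SE 0.35). The C#1 value turned to 0.08 without replicate 1 of C#1, and the C#2 value shrank to -0.10 without replicate 1 of C#2. The ranges of both clones overlapped the parental range. With 1 array left out, the C#3 value ran from 0.52 to 0.93. CEACAM7 was the one of the 4 genes with a higher mean in C#3 than in C#1 and C#2, by 1.11 over C#1 and 1.13 over C#2, with ranges that did not overlap.

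**Figure D1:**
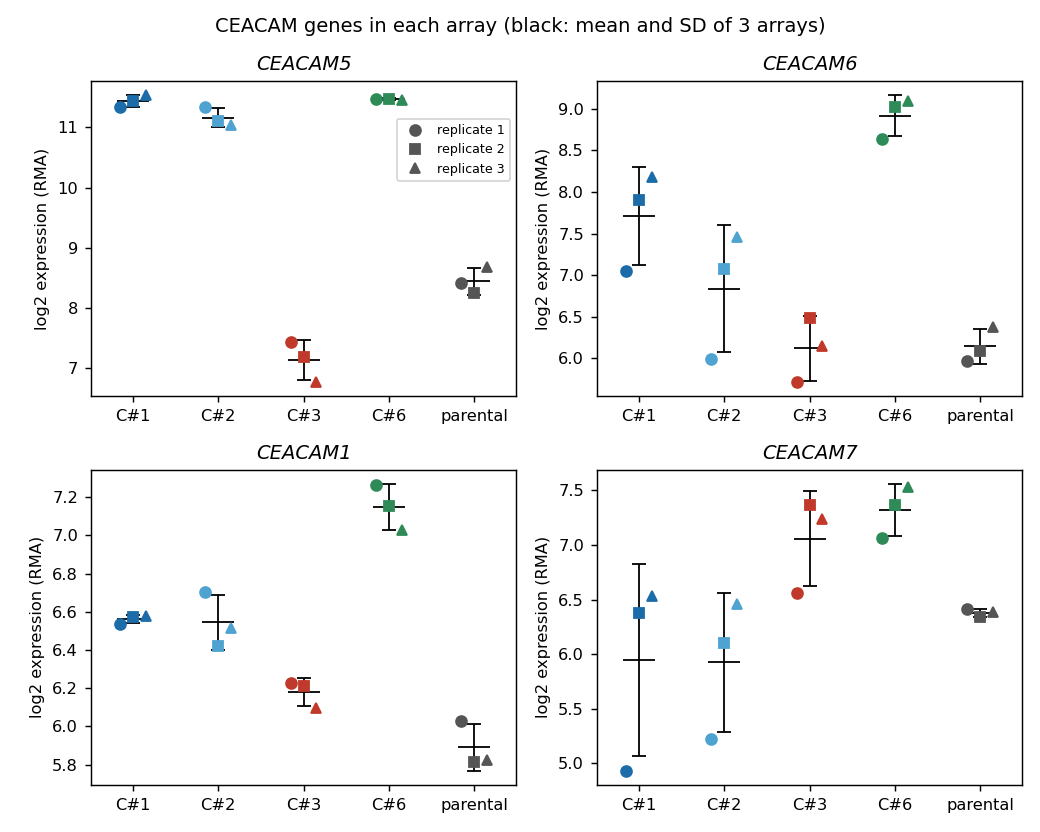
Deposited log2 expression of CEACAM5, CEACAM6, CEACAM1 and CEACAM7 in each of the 15 arrays, by group on the horizontal axis, with 1 vertical scale per gene. Marker shapes give the replicate number and black bars the mean and SD of 3 arrays; CEACAM5 lies between 11.04 and 11.53 in C#1, C#2 and C#6 and between 6.77 and 7.44 in C#3, against 8.24 to 8.68 in parental cells.

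C#6 was the clone in which all 4 genes lay above the parental range, and in which each had its highest group mean. In C#1, 3 of the 4 genes had all arrays above all parental arrays, in C#2 2, in C#3 2 and in C#6 4; 1 gene, CEACAM5 in C#3, had all arrays below. Over all genes tested, the share with all 3 clone arrays above all 3 parental arrays was 14.8% in C#1, 14.4% in C#2, 16.7% in C#3 and 16.6% in C#6. The share with all 3 below was 21.8% in C#1, 22.1% in C#2, 22.3% in C#3 and 24.1% in C#6. Since these comparisons were used to choose the genes, nothing is read from the counts. The group means spanned 4.34 log2 units for CEACAM5, 2.80 for CEACAM6, 1.26 for CEACAM1 and 1.40 for CEACAM7. In C#3 the genes diverged, with CEACAM5 at -1.31, CEACAM6 at -0.03, CEACAM1 at 0.29 and CEACAM7 at 0.68 relative to parental cells.

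**Figure D2:**
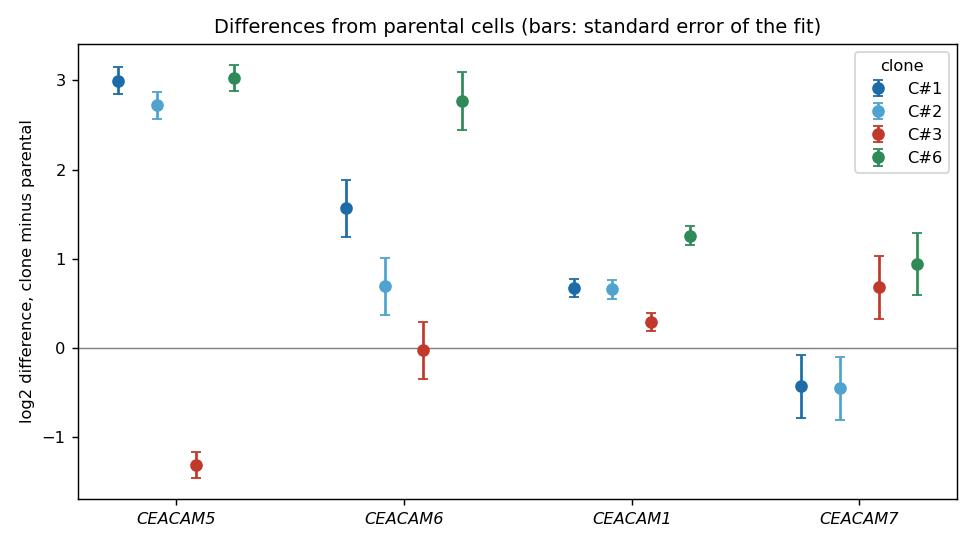
Difference of each clone from parental cells (log2, vertical axis) for the 4 CEACAM genes, with the standard error of the limma fit as bars and clones in colour. CEACAM5 stands at 3.00 in C#1, 2.72 in C#2, -1.31 in C#3 and 3.03 in C#6, and the C#1 and C#2 values of CEACAM7 lie below 0 with an SE of 0.35.

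CEACAM6 and CEACAM7 varied with the replicate number. The replicate 1 array had the lowest CEACAM6 value in all 5 groups and the lowest CEACAM7 value in all 4 clones, but CEACAM5 and CEACAM1 were lowest in replicate 1 of 1 group each. CEACAM1 had the opposite order in most groups, with its highest value in replicate 1 of parental cells, C#2, C#3 and C#6. In C#1, for example, CEACAM7 was 4.93 in replicate 1, against 6.38 and 6.53 in the other arrays. Of all genes tested, 6.00% (729 genes) had their lowest value in replicate 1 of all 4 clones. Over all genes, deviations of same-numbered arrays from their group means correlated at 0.46, 0.09 and 0.34 between C#2 and C#1, at 0.22, 0.18 and 0.19 between C#6 and C#1, and between -0.12 and 0.27 for the other pairs of clones. The labels do not say whether a replicate number marks a shared day or batch, and a part of a shared batch in these values was not tested. With the replicate 1 arrays of all 5 groups left out, an alternative chosen after seeing the data, the CEACAM6 differences were 1.81 in C#1, 1.03 in C#2, 0.09 in C#3 and 2.82 in C#6. The CEACAM7 differences were then 0.09 in C#1, -0.08 in C#2, 0.94 in C#3 and 1.09 in C#6.

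**Figure D3:**
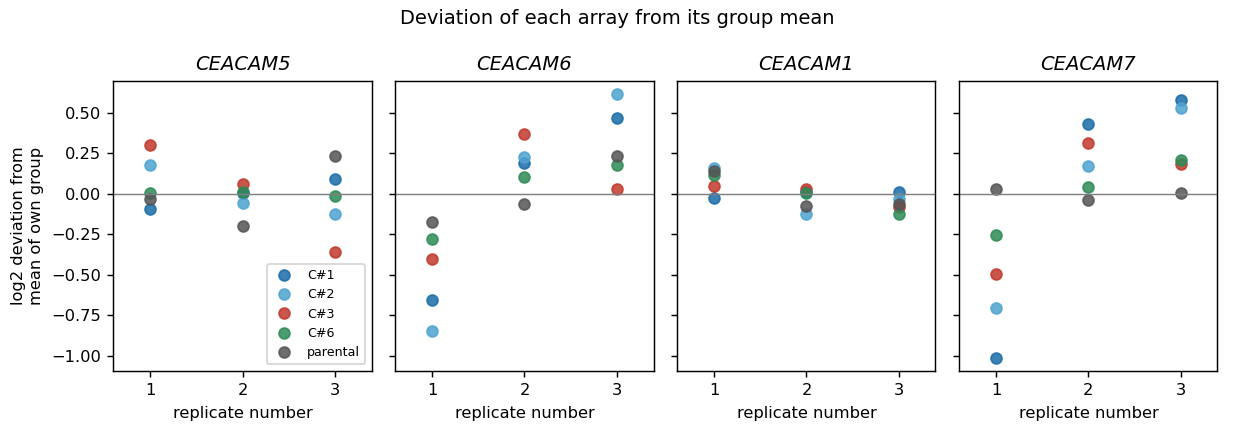
Deviation of each array from the mean of its own group (log2, vertical axis) by replicate number, for the 4 CEACAM genes, with groups in colour. Replicate 1 lies lowest for CEACAM6 in all 5 groups and for CEACAM7 in the 4 clones. For CEACAM1 it lies highest in parental cells, C#2, C#3 and C#6, and CEACAM5 has no such order.

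Across the 15 arrays, Pearson's r between members was 0.83 for CEACAM6 with CEACAM1, 0.76 for CEACAM5 with CEACAM1, 0.73 for CEACAM5 with CEACAM6 and 0.41 for CEACAM6 with CEACAM7. It was 0.20 for CEACAM1 with CEACAM7 and -0.27 for CEACAM5 with CEACAM7. These values describe likeness over arrays that fall into 5 groups and share their processing, and arrays of 1 group are not independent points. They hold differences between replicates as well as between groups, so the order by replicate number described above enters them. The same holds for the likeness of other genes below. Likeness was ranked among the 573 tested genes whose group means spanned at least 1 log2 unit. CEACAM1 ranked 49 and CEACAM6 ranked 58 in likeness to CEACAM5, so many genes outside the family followed CEACAM5 more closely than its neighbour did.

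The 5 genes most like CEACAM5 were ARFGAP3, a regulator of ARF proteins at the Golgi (r = 0.97), NTSR1, the neurotensin receptor (0.95), CA13, a carbonic anhydrase (0.94), GYG2, a glycogenin (0.93), and ERO1B, an oxidase of protein folding in the endoplasmic reticulum (0.93). NTSR1 had mean levels of 8.52 in C#1, 8.49 in C#2, 5.63 in C#3 and 7.73 in C#6, against 6.38 in parental cells. ARFGAP3 had 9.78 in C#1, 9.69 in C#2, 8.76 in C#3 and 9.77 in C#6, against 9.11 in parental cells. The most opposite genes were NPR3, the clearance receptor of natriuretic peptides (-0.98), CST4, a cystatin (-0.96), ZNF175, a zinc finger protein (-0.96), RPL23AP87 (-0.96) and VEPH1 (-0.95). RPL23AP87 is a ribosomal protein pseudogene whose probes may not tell it from its parent gene. NPR3 had mean levels of 5.45 in C#1, 5.61 in C#2, 8.32 in C#3 and 5.78 in C#6, against 7.76 in parental cells. Both sets thus had C#3 and parental cells on one side and the other 3 clones on the other.

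**Figure D4:**
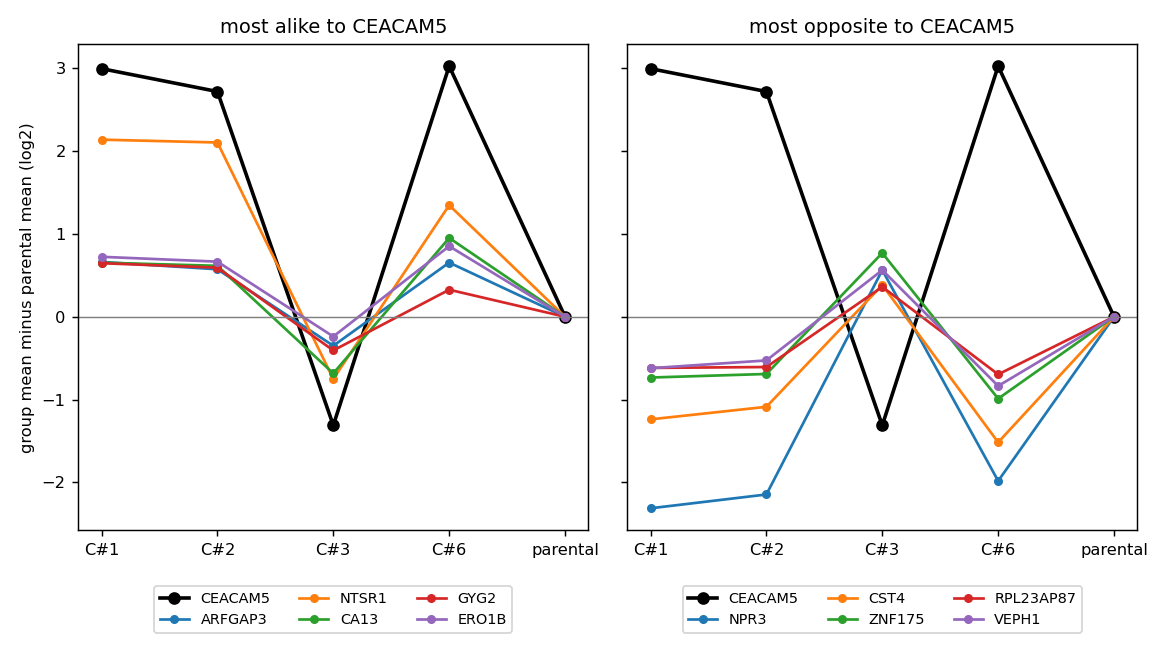
Group means minus the parental mean (log2, vertical axis) of CEACAM5 and the 5 genes most like it (left) and most opposite to it (right), by group; lines join the points of 1 gene. CEACAM5 runs from -1.31 in C#3 to 3.03 in C#6, a wider range than any of the 10 genes beside it.

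The genes most like CEACAM6 were ENPP5, a membrane protein of the ectonucleotide pyrophosphatase family (r = 0.92), ATP13A5, a P-type ATPase (0.91), and TSPAN8, a tetraspanin of epithelia (0.90); the most opposite were ETNK2 (-0.90), SUSD3 (-0.90) and LONRF1 (-0.88). ENPP5 had mean levels of 6.97 in C#1, 6.80 in C#2, 6.33 in C#3 and 7.46 in C#6, against 5.98 in parental cells. CEACAM1 was most like GALNT7, an enzyme of mucin-type O-glycosylation (0.96), LRP2, the endocytic receptor megalin (0.95), and GNE, the enzyme that starts sialic acid synthesis (0.95), and most opposite to TNS1 (-0.95), DCAKD (-0.94) and UNC13D (-0.93). LRP2 had mean levels of 7.20 in C#1, 7.53 in C#2, 6.14 in C#3 and 8.44 in C#6, against 5.90 in parental cells, the order of CEACAM1 except that C#2 stood above C#1. CEACAM7 was most like ZNF594 (0.89), GINS2, a subunit of the replicative helicase (0.89), and NETO2 (0.88), and most opposite to ADA, adenosine deaminase (-0.91), CD44, the hyaluronan receptor (-0.91), and SFXN3 (-0.90). CD44 had mean levels of 6.11 in C#1, 6.08 in C#2, 4.75 in C#3 and 5.11 in C#6, against 5.63 in parental cells.

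The rest of the family moved little. Of 17 other CEACAM and pregnancy-specific glycoprotein (PSG) genes with a symbol, 9 passed the filter: CEACAM3, CEACAM4, CEACAM16, CEACAM19, CEACAM20, CEACAM21, PSG4, PSG6 and PSG9. CEACAM8, PSG1, PSG2, PSG3, PSG5, PSG7, PSG8 and PSG11 stayed below it, and CEACAM18 was not analysed here. Genes were called at a limma p, adjusted by Benjamini-Hochberg over all 12147 genes, below 0.05. In at least 1 clone, 1 of the 9 (11.1%) was called, against 37.5% of all genes. Of the 9, 0 were called in C#1 and C#2, where 0 also had an unadjusted p under 0.05; 1 of the 3 with such a p in C#3, and 1 of the 2 in C#6, was called lower. That gene was CEACAM19, which averaged 5.65 ± 0.14 in C#1, 5.69 ± 0.12 in C#2, 5.48 ± 0.06 in C#3 and 5.43 ± 0.08 in C#6, against 5.78 ± 0.09 in parental cells (SD, n = 3 each). It fell by 0.30 in C#3 (adjusted p = 0.0484) and by 0.35 in C#6 (adjusted p = 0.0185; SE 0.10). The C#3 call was lost when any of 12 single arrays was left out, and the C#6 call without parental replicate 2, parental replicate 3 or C#6 replicate 2; both were lost with a second quantile normalisation. The group means of the 9 genes spanned 0.10 (CEACAM4) to 0.41 (PSG4) log2 units. The median difference of the 9 was -0.03 in C#1, 0.06 in C#2, 0.02 in C#3 and 0.11 in C#6, against -0.02 in C#1, -0.02 in C#2, -0.0018 in C#3 and -0.02 in C#6 for all genes.

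Over all genes, limma called 6.03% higher and 11.2% lower in C#1, 5.47% higher and 11.5% lower in C#2, 6.22% higher and 11.0% lower in C#3, and 7.73% higher and 14.7% lower in C#6. Called in at least 1 clone were 37.5% of genes, the share to set beside each list's percentage. The lists were chosen with earlier results of these data known, so no list's percentage is read as a result about that list. The share of calls that were lower depended on scaling: it was 65.0% in C#1, 67.7% in C#2, 63.8% in C#3 and 65.5% in C#6 with the values as deposited. After a second quantile normalisation it was 52.1% in C#1, 52.2% in C#2, 50.3% in C#3 and 49.7% in C#6, and after centring each array on its median 45.8% in C#1, 46.8% in C#2, 48.6% in C#3 and 41.7% in C#6. Centring moved the median of all genes in C#6 up by 0.10. The upper quartile of the arrays was 5.80 to 5.89 in clones and 5.94 to 5.96 in parental cells.

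Chromosome 19 genes around the cluster had more lower than higher calls in each clone, as all genes had in the values as deposited. Of the 54 listed genes that lie within 20 genes of a member on either side and are outside the family, 22 were tested, and 10 of them (45.5%) were called in at least 1 clone. C#1 had 1 higher and 6 lower, C#2 1 higher and 7 lower, C#3 1 higher and 4 lower, and C#6 3 higher and 6 lower. DMAC2, a mitochondrial complex I assembly factor, fell, with differences of -0.69 in C#1, -0.56 in C#2, -0.48 in C#3 and -0.81 in C#6 (SE 0.10; adjusted p at most 0.00367). GSK3A, a glycogen synthase kinase, fell, with differences of -0.66 in C#1, -0.71 in C#2, -0.65 in C#3 and -0.73 in C#6 (SE 0.11; adjusted p at most 0.000908). ERF, an ETS family repressor, fell, with differences of -0.77 in C#1, -0.66 in C#2 and C#6 and -0.40 in C#3 (SE 0.13; adjusted p at most 0.045), with the C#3 call lost without any of 9 single arrays, among them each parental and each C#3 array, and under the other scalings. CXCL17, a mucosal chemokine and the nearest tested gene to CEACAM1, rose by 0.31 in C#1, 0.43 in C#2, 0.31 in C#3 and 0.78 in C#6 (SE 0.10; adjusted p at most 0.0378), and its C#1 and C#3 calls were lost without any 1 parental array. The C#1 call of CXCL17 was also lost without any 1 C#1 array, and its C#3 call without C#3 replicate 1 or 3. The count of called neighbours was 6 without parental replicate 3.

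**Figure D5:**
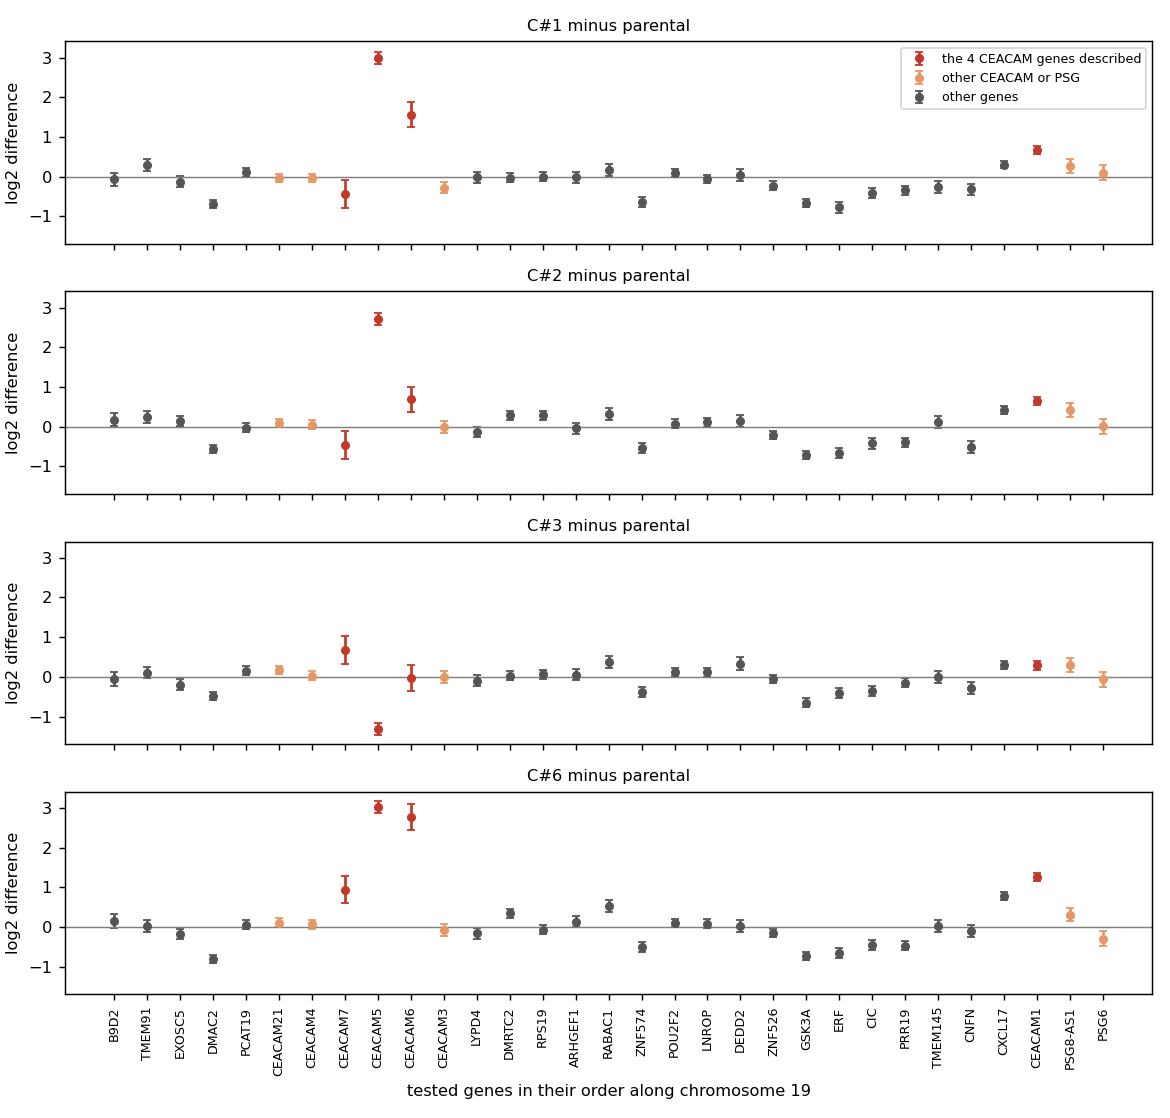
Difference of each clone from parental cells (log2, vertical axis, bars: standard error of the limma fit) for the tested genes around the CEACAM cluster in their order along chromosome 19, with the 4 genes described in red and other family members in orange. CEACAM5 and CEACAM6 reach 3.03 and 2.77 in C#6, while GSK3A lies between -0.73 and -0.65 in the 4 clones.

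Of 35 listed genes known as binding partners or signalling proteins of CEACAM1 and its relatives, 16 had a symbol here and 15 were tested. In at least 1 clone 6 (40%) were called, near the 37.5% of all genes. C#1 and C#2 each had 2 higher and 2 lower, C#3 had 0 higher and 4 lower, and C#6 2 higher and 3 lower. PXN, the focal adhesion adaptor paxillin, fell, with differences of -0.65 in C#1, -0.78 in C#2, -0.73 in C#3 and -1.05 in C#6 (SE 0.13; adjusted p at most 0.00242). BAX, a cell death effector, fell, with differences of -0.94 in C#1, -0.83 in C#2, -0.70 in C#3 and -0.79 in C#6 (SE 0.18; adjusted p at most 0.0127), the C#3 call being lost without parental replicate 3 or C#3 replicate 1. INSR, the insulin receptor, which phosphorylates CEACAM1 in liver, rose by 0.79 in C#1 and C#2 and 0.53 in C#6 (SE 0.12; adjusted p at most 0.00459), with a difference of 0.33 in C#3 (adjusted p = 0.0702). LYN, a Src family kinase, fell by 1.32 in C#3 (SE 0.14; adjusted p = 1.23e-05), with differences of 0.14 in C#1, 0.08 in C#2 and -0.27 in C#6 that were not called. SHP-1 and SHP-2 were not analysed here.

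Of a list of transcription, signalling and splicing factors considered for CEACAM regulation, 24 were tested and 11 (45.8%) were called in at least 1 clone. C#1 had 3 higher and 3 lower, C#2 2 higher and 4 lower, C#3 1 higher and 5 lower, and C#6 1 higher and 7 lower. GATA3, the luminal transcription factor, fell, with differences of -2.89 in C#1, -3.14 in C#2, -0.76 in C#3 and -2.36 in C#6 (SE 0.15; adjusted p at most 0.00183); its mean was 6.23 ± 0.21 in C#1, 8.36 ± 0.12 in C#3 and 9.12 ± 0.13 in parental cells (SD, n = 3 each). The 3 clones with high CEACAM5 were those with the larger GATA3 differences, and a relation between the genes was not tested. HNRNPA1, a splicing factor of CEACAM1 exon choice, fell, with differences of -0.74 in C#1, -0.68 in C#2, -1.04 in C#3 and -1.29 in C#6 (SE 0.22; adjusted p at most 0.0402), with the C#1 and C#2 calls lost with centring and without parental replicate 2, parental replicate 3 or C#1 replicate 2. The C#1 call was also lost without C#1 replicate 1, and the C#2 call without any 1 C#2 array and with a second quantile normalisation. RELA, an NF-kappaB subunit, fell, with differences of -0.66 in C#1, -0.54 in C#2 and -0.53 in C#6 (SE 0.11; adjusted p at most 0.0034), and GATA2 fell, with differences of -0.65 in C#3 and -0.48 in C#6 (SE 0.12; adjusted p at most 0.00982). The GATA2 call in C#6 was lost without parental replicate 2 or C#6 replicate 1. USF1, a factor that binds E-box letters such as those in the CEACAM5 and CEACAM6 promoters above, differed by 0.09 in C#1, 0.10 in C#2, 0.34 in C#3 and 0.14 in C#6 (SE 0.13) and was not called (adjusted p at least 0.0935). SP1, a GC box factor, fell by 0.38 in C#6, a call lost without parental replicate 3 or C#6 replicate 1 and with centring, and IRF1 was not called, with differences from -0.30 in C#2 to 0.08 in C#3.

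The GPI anchor on CEACAM5, CEACAM6 and CEACAM7 is made by a pathway of which 33 genes were listed. Most of the list could not be examined: 10 genes had a symbol here, and 9 were tested. Of these, 4 (44.4%) were called in at least 1 clone, each in 1 clone only, and C#2 had 0 calls, with 1 unadjusted p under 0.05 in limma. PGAP3, a lipid remodelling enzyme of the anchor, fell by 0.42 in C#6 (SE 0.11; adjusted p = 0.0105). GPAA1 fell by 0.30 in C#6 (adjusted p = 0.0431), MPDU1 by 0.54 in C#1 (adjusted p = 0.0419), and MPPE1 rose by 0.33 in C#3 (adjusted p = 0.0299). Each of these last 3 calls was lost without parental replicate 2 or parental replicate 3, the GPAA1 call also without 7 other single arrays. The GPAA1 and MPDU1 calls were lost as well with a second quantile normalisation and with centring. The list's count was 1 without parental replicate 2, parental replicate 3 or C#3 replicate 2, and 2 without parental replicate 1 or C#1 replicate 2. Of 34 other GPI-anchored surface proteins tested, 16 (47.1%) were called in at least 1 clone: 1 higher and 7 lower in C#1, 1 higher and 5 lower in C#2, 0 higher and 5 lower in C#3, and 3 higher and 11 lower in C#6. GPC6, a glypican, fell, with differences of -2.87 in C#1, -2.86 in C#2, -1.91 in C#3 and -3.001 in C#6 (SE 0.16; adjusted p at most 1.09e-06). GPC4, another glypican, rose by 0.78 in C#1, 0.46 in C#2 and 1.54 in C#6 (SE 0.13; adjusted p at most 0.0249), with -0.24 in C#3, and its C#2 call was lost without parental replicate 1 or 2 or C#2 replicate 1. GFRA1, a GDNF co-receptor, fell, with differences of -1.75 in C#1, -1.59 in C#2 and -0.65 in C#6 (SE 0.15; adjusted p at most 0.0042), and CNTN1, a contactin, fell, with differences of -1.17 in C#3 and -1.47 in C#6 (SE 0.18; adjusted p at most 0.000312).

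Mucosal and secretory epithelial genes, products of glandular linings where CEACAM genes are also expressed, had more higher than lower calls in every clone. Of 48 listed, 25 were tested, and 14 (56.0%) of these were called in at least 1 clone, against 37.5% of all genes. C#1 had 7 higher and 2 lower, C#2 5 higher and 2 lower, C#3 5 higher and 1 lower, and C#6 11 higher and 2 lower. AGR2 was called lower in C#1 (-1.25), C#2 (-1.17) and C#6 (-0.78). SLPI was called lower in C#1 (-0.78) and C#2 (-0.93) and higher in C#6 (0.63). The other lower calls were EHF in C#3 (-0.36) and PIP in C#6 (-1.15). The list's median difference was 0.22 in C#1, 0.19 in C#2, 0.05 in C#3 and 0.25 in C#6. TFF1, a trefoil peptide of mucous secretions, rose by 0.70 in C#1, 1.16 in C#2, 0.58 in C#3 and 1.51 in C#6 (SE 0.14; adjusted p at most 0.0075). CLCA2, a regulator of chloride channels, rose by 1.36 in C#1, 1.49 in C#2, 2.79 in C#3 and 1.30 in C#6 (SE 0.20; adjusted p at most 0.000228), with its highest mean in C#3, where CEACAM5 was lowest. APOD, a lipocalin, rose by 0.82 in C#1, 0.97 in C#3 and 2.20 in C#6 (SE 0.20; adjusted p at most 0.0089), with 0.21 in C#2. TSPAN8 rose by 1.63 in C#6 (adjusted p = 0.00169) and by 1.09 in C#1 (adjusted p = 0.0282; SE 0.32), and the C#1 call was lost without any 1 parental array or without C#1 replicate 2 or 3.

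The proteins that join epithelial cells moved in both directions. Of 37 junction genes tested, 20 (54.1%) were called in at least 1 clone: 6 higher and 7 lower in C#1, 5 higher and 6 lower in C#2, 6 higher and 8 lower in C#3, and 4 higher and 9 lower in C#6. DSG2, a desmosomal cadherin, fell, with differences of -0.79 in C#3 and -2.09 in C#6 (SE 0.15; adjusted p at most 0.002), with -0.03 in C#1 and 0.17 in C#2. PKP2, a desmosomal plaque protein, fell, with differences of -0.48 in C#1, -0.53 in C#3 and -1.09 in C#6 (SE 0.12; adjusted p at most 0.00863), and had -0.34 in C#2 (adjusted p = 0.0584). GRHL3, an epithelial transcription factor, fell, with differences of -0.93 in C#1, -1.25 in C#2, -1.21 in C#3 and -1.05 in C#6 (SE 0.24; adjusted p at most 0.0121), the C#1 call being lost without parental replicate 3 or C#1 replicate 1. CRB3, an apical polarity protein, rose by 0.65 in C#1, 0.68 in C#2, 0.74 in C#3 and 0.83 in C#6 (SE 0.13; adjusted p at most 0.00254). EPCAM, an adhesion molecule of simple epithelia, rose by 0.32 in C#1, 0.27 in C#2 and 0.50 in C#6 (SE 0.08; adjusted p at most 0.0341), with 0.24 in C#3 (adjusted p = 0.0646), and its C#2 call was lost without any 1 parental or C#2 array. Of the 16 luminal markers tested, 11 (68.8%) were called in at least 1 clone, against 37.5% of all genes. C#1 had 3 higher and 5 lower, C#2 3 higher and 4 lower, C#3 2 higher and 6 lower, and C#6 3 higher and 6 lower. TFF1, TFF3 and EPCAM were those with higher calls. GRB7 was among the lower calls, with differences of -0.87 in C#3 and -1.05 in C#6 (SE 0.13, limma adjusted p at most 0.000274). Of the keratins in this list, KRT19 and KRT7 were not called in any clone, with differences from 0.07 to 0.27 for KRT19 and from -0.27 to 0.09 for KRT7. KRT18 fell, with differences of -0.56 in C#3 and -0.57 in C#6 (SE 0.13, adjusted p at most 0.00741). KRT8 fell by 0.70 in C#1 (SE 0.15, adjusted p = 0.00478) and by 0.45 in C#6, with 0.08 in C#2. The KRT8 call in C#6 was lost without any of 8 single arrays, among them each parental array. It was also lost with a second quantile normalisation and with centring. PGR, the progesterone receptor, fell, with differences of -1.28 in C#1, -0.97 in C#2 and -1.43 in C#3 (SE 0.28; adjusted p at most 0.0248), and had -0.63 in C#6 (adjusted p = 0.121). The C#2 call of PGR was lost without parental replicate 2 or 3 or C#2 replicate 1 or 2. AGR2, a secretory disulfide isomerase, fell, with differences of -1.25 in C#1, -1.17 in C#2 and -0.78 in C#6 (SE 0.14; adjusted p at most 0.000666), and had -0.06 in C#3.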

How the data were processed

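Total RNA was measured on 15 Affymetrix arrays, 3 each of clone C#1, clone C#2, clone C#3, clone C#6 and parental BT474. The authors deposited log2 values for 53617 probe sets and, per the submitters' processing notes, used Affymetrix Expression Console 1.4.1, RMA and Transcriptome Analysis Console. RMA makes array distributions alike and compresses differences near background. The genome build of the array design is not given here. The platform annotation gave 1 symbol to 16098 probe sets and none here to 37519, and 0 had several; all 16098 matched the RefSeq gene table (GRCh38.p14), used only to update names and order genes. The probe set with the highest mean stood for a gene (535 tested symbols had several). Genes above the 40th percentile of their array (3.56 to 3.62) in at least 3 arrays were kept.

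With limma 3.58.1 (R 4.3.3), 1 mean for each group was estimated from the 15 arrays together (10 residual degrees of freedom before moderation), after tests on simulated data, and p-values were adjusted by Benjamini-Hochberg over 12147 genes within each clone. Promoters were aligned with Biopython 1.88. The number of arrays limits the precision. The p-values rest on the spread between arrays within a group, pooled over the 5 groups and moderated across genes, and not on the spread between resistant clones. The genes described and all gene lists were chosen with earlier results of these data known. Named were the 4 genes, the other family members, the genes most and least like each of the 4 by Pearson's r, up to 4 called genes a list with the largest differences, and a few fixed genes. Correlations of same-numbered deviations between each clone and parental cells ran from -0.13 to 0.07, so replicate numbers were not taken to pair these arrays. Between clones they ran from -0.12 to 0.46, and were over 0.1 for all 3 numbers between C#6 and C#1.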

Additional observations from a re-analysis of the deposited data

Results flagged for a closer look

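CEACAM5 differed from parental cells in opposite directions: every array of C#1, C#2 and C#6 lay above the parental arrays and every array of C#3 below them. The differences between clones were -4.31 for C#3 minus C#1, -4.03 for C#3 minus C#2 and 4.34 for C#6 minus C#3 (log2), and they were not tested, since the gene was chosen for its values. KLF4, a zinc finger transcription factor of epithelia, outside the rule for named genes and chosen after its values were seen, lay above all parental arrays in C#1 and C#2 and below them in C#3. Its difference was -0.89 for C#3 minus C#1 and -0.71 for C#3 minus C#2, neither tested; its calls against parental cells in C#2 and C#3 were lost without any 1 parental array, and the C#3 call also after a second quantile normalisation (-0.28) and after centring (-0.30), against -0.36 as deposited. SLPI, a secreted protease inhibitor of mucosae, chosen in the same way, lay below all parental arrays in C#1 and C#2 and above them in C#6. Its difference was 1.41 for C#6 minus C#1 and 1.56 for C#6 minus C#2, also not tested. Groups of 3 arrays were too small to be searched for outlying arrays.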

How the results depend on the processing

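No CEACAM5 or CEACAM1 difference turned direction under any alternative. With 1 array left out, CEACAM5 ran from 2.89 to 3.11 in C#1, 2.62 to 2.84 in C#2, -1.46 to -1.13 in C#3 and 2.93 to 3.14 in C#6. CEACAM1 in C#6 was 1.37 after a second quantile normalisation, against 1.26 as deposited. CEACAM6 in C#3 ran from -0.21 to 0.17 and CEACAM7 in C#1 from -0.72 to 0.08 with 1 array left out.

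The count of other CEACAM and PSG genes called in at least 1 clone was 1 in the values as deposited. It was 2 with a stricter filter on dim probe sets, 0 after a second quantile normalisation, 2 with the fit limited to the 6 arrays of a clone and parental cells, 4 with array weights, and 0 to 2 with 1 array left out. With 1 array left out, the GPI synthesis count, otherwise 4, ran from 1 to 5 and the neighbour count, otherwise 10, from 6 to 10. The partner count, otherwise 6, was 10 with array weights. Causes were not tested. The counts of regulators, other GPI-anchored proteins, mucosal genes and junction genes stayed within 1.5 times under every alternative run. Of 109 calls of named genes, 87 held under every alternative, 22 ended without some single array and 0 reversed.

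With the replicate block, the differences were those given above (CEACAM6 1.56 in C#1, 0.69 in C#2, -0.03 in C#3 and 2.77 in C#6) and the SE of CEACAM6 was 0.19 in place of 0.32. The block ended 1 call of a named gene, ERF in C#3 (-0.40), which also ended with no filter on dim probe sets. The numbers were not shown to pair clone and parental arrays.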
